A study of Mus musculus with 15 samples.

Results

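The genes described here encode 9 proteins that detect and signal DNA breaks and unpaired chromosome axes during meiotic prophase: Atm, Atr, Mdc1, Topbp1, H2afx, Brca1, Chek1, Chek2 and Scml2. They were chosen by name from the 36118 gene identifiers of the table, with H2afx also known as H2ax. All 9 were among the 17896 genes that had a mean of at least 10 normalised counts over the libraries and were tested. RNA was sequenced from whole testes of C57/BL6 mice in 5 groups of 3 libraries, named MTX, HMS-I1, AA, TSA and Control, and the series asks how histone H3 and H4 modifications bear on chromosome organization in prophase. No allele or transgene is given for any group, all groups share the C57/BL6 genotype, and the labels spell out none of the treatment names and give no dose, age or duration. The HMS-I1 libraries are grouped by their titles, because their treatment field gives a separate entry to each (HMS-I1, then HMS-I2, then HMS-I3), and each HMS-I1 value rests on that choice. Nothing says that the libraries of a group came from separate animals, and the spread behind each p-value may therefore be technical: it is only that between these samples. In whole testis, fewer cells of a type and less RNA per cell cannot be told apart.

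In spermatocytes entering meiosis, programmed DNA breaks activate the kinase ATM, and the kinase ATR acts later, on chromosome axes that stay unpaired. In the male, the X and Y chromosomes remain largely unpaired in pachytene: BRCA1 helps to bring ATR to their axes, TOPBP1 activates ATR, ATR phosphorylates the histone variant H2AX encoded by H2afx, and MDC1 binds that mark and spreads it into the chromatin loops. Transcription from both sex chromosomes is then silenced. CHK1 and CHK2, encoded by Chek1 and Chek2, are kinases downstream of ATR and ATM, and SCML2 is a germline Polycomb protein, encoded on the X chromosome, that acts on the sex chromosomes of spermatocytes. Much of this signalling works through phosphorylation, which RNA levels do not measure.

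Of the members, 5 lie on chromosome 9 (Atm, Atr, Topbp1, H2afx and Chek1), and the others on chromosome 17 (Mdc1), 11 (Brca1), 5 (Chek2) and X (Scml2). RefSeq promoter windows of build GRCm38.p6, from 250 bases before to 50 bases after the start, were matched for 8 of the 9 members. Those of Atr and Brca1 are shown because these genes alone among the members separated the library sets described below without overlap. That is 2 of 9 members, beside 24.8% of all genes tested, so the separation is not particular to them. The Atr window is chr9:95857347-95857646 on the plus strand and the Brca1 window is chr11:101551906-101552205 on the minus strand, each written 5′ to 3′ with a CCAAT motif in capitals.
Atr: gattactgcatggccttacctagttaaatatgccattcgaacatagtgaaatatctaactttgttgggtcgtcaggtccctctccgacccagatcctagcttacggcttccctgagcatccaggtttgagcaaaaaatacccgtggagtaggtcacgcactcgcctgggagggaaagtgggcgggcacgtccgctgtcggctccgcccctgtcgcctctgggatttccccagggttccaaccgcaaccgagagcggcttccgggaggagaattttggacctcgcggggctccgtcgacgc
Brca1: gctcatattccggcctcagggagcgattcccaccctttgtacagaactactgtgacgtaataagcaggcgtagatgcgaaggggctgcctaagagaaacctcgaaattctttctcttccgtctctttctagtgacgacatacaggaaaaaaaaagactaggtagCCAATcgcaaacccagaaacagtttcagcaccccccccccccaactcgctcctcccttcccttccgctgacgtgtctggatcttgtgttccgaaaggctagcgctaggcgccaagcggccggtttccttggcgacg
The Brca1 window holds 1 CCAAT and the Atr window holds none. Searched on both strands, CCAAT was in 4 of the 8 member windows (Atm, Mdc1, Brca1 and Chek2), against 37.4% of 32851 windows in the table. The E2F-type letters TTTNNCGC were in 3 of 8 (Mdc1, Topbp1 and Chek2), against 5.17% of all windows. These letters hold the pair CG, which occurred 13 (Scml2) to 38 (Topbp1) times in the member windows, against a median of 7 over all windows. The part of this difference in the E2F matches was not tested. TGACGTCA and TTTGAA were in none of the 8, against 1.79% and 17.9% of all windows. Atr, Chek1 and Scml2 held none of these letters, and the matches are a description of the windows only.
H2afx is the histone gene among the members, and its transcript carries the stem-loop of histone mRNAs that end without a poly(A) tail. The site is shown, with the stem-loop in capitals, because histone genes set the libraries apart.
H2afx: cacaaaGGCCCTTTTAAGGGCCaccacctc
The stem-loop stands 47 bases after the stop codon of a transcript of 1384 bases, and 822 bases follow it, so the annotated transcript runs on past the stem-loop. Allowing any base at the N positions, the letters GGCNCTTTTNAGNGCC were found in the given strand of transcripts of 38 of the 60 histone genes of the Hist clusters tested, and in 47 of 55450 genes of the annotation (0.0848%).

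Before the results, a division among the libraries has to be given. Split at the largest gap in their mean log2 value over those 60 histone genes, the first replicates of all 5 groups and Control 2 form a first set of 6 libraries (7.79 to 8.82), and the other 9 form a second set (2.95 to 3.86). The first set had 1.08% to 1.40% of its signal on 13 mitochondrial genes, against 3.54% to 13.7% in the second. From the commonest low value, taken as the worth of 1 read, the first set was estimated at 1.16e+07 to 1.55e+07 reads and the second at 3.10e+07 to 6.89e+07 reads, so values of the first set rest on fewer reads. Of the 3 libraries of a treatment only replicate 1 belongs to the first set, whereas Control has replicates 1 and 2 there. What the sets are is not stated in the labels, and differences from Control are therefore also given within each set.

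All 9 genes were expressed in all 15 libraries, and Atr stood far above the others. Divided by the length of the longest coding transcript, the mean level over the libraries was 2524 normalised counts per kb for Atr, followed by 762 for Mdc1, 718 for H2afx, 656 for Topbp1 and 381 for Scml2. Brca1 (129), Chek1 (105), Atm (102) and Chek2 (48.5 normalised counts per kb) were the low ones. Atr ranked first in 15 of 15 libraries and Chek2 last in 12 of 15. Mdc1, H2afx and Topbp1 changed places from library to library, as did Brca1, Chek1 and Atm. An snRNA gene and 2 antisense genes share exon bases with Atr, and an antisense miRNA gene shares some with H2afx. The snRNA gene lies on the strand of Atr, so counting by strand would not separate it. None of these overlapping genes is among the 36118 gene identifiers. Whether reads were counted by strand is not stated in the labels. Reads from the shared bases therefore cannot be told apart from those of Atr and H2afx.

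**Figure D1:**
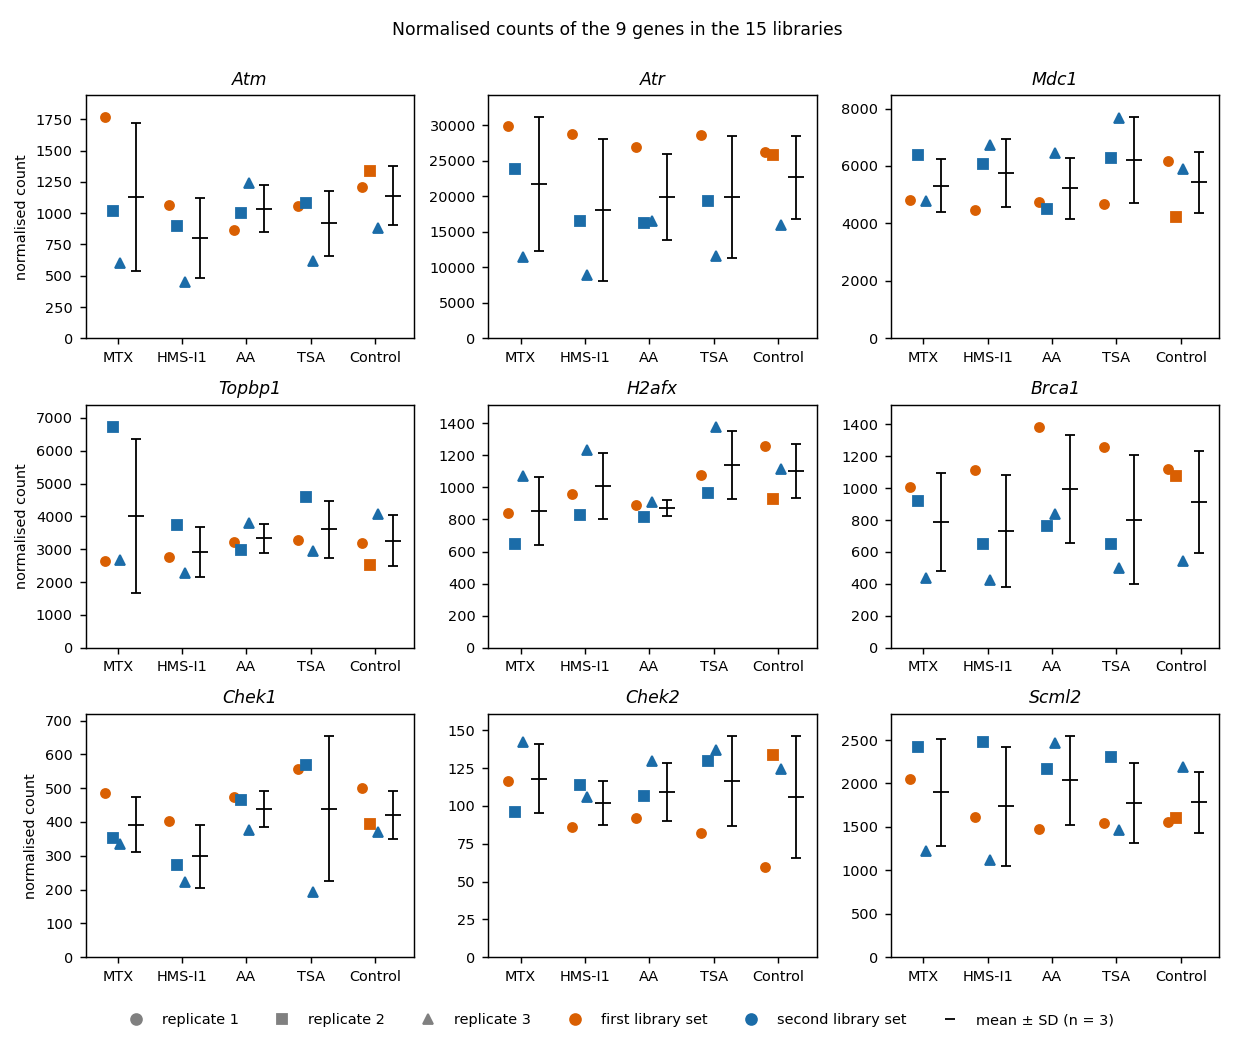
Normalised counts of the 9 genes (y axis, linear from 0) in the 3 libraries of MTX, HMS-I1, AA, TSA and Control (x axis), with symbols for the replicate number, colours for the library set and black bars for the mean ± SD (n = 3). The libraries of the groups intermingle for 8 genes in every comparison with Control, and all 3 AA libraries of H2afx, at 815 to 911, lie under the lowest Control library at 925.

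Of the kinases at the head of the pathway, Atr had the widest spread of the 9 members, with a pooled SD within groups of 0.63 on the log2 scale. Atr had 29890.2, 23791 and 11398 normalised counts in the MTX libraries, 28845, 16523 and 8994 in HMS-I1, 26910.0, 16244 and 16485 in AA, 28704, 19289 and 11588 in TSA, and 26295, 25773 and 15979.7 in Control (replicates 1, 2 and 3 in this and the following lists). The first replicate was the highest in every group, and within a treatment the libraries differed by more than the group means did. The group means of Atr were 21693 ± 9423 in MTX, 18121 ± 10022 in HMS-I1, 19879.7 ± 6089.6 in AA and 19860.1 ± 8572 in TSA, against 22683 ± 5811 normalised counts in Control (SD, n = 3 each). Atm had 1765, 1015 and 601 normalised counts in MTX, 1066, 894 and 447 in HMS-I1, 868, 1001 and 1243 in AA, 1054, 1085 and 621 in TSA, and 1206, 1338 and 879 in Control. The third libraries of MTX, HMS-I1 and TSA were the 3 lowest of the 15 for Atm as well as for Atr, and HMS-I1 had the lowest group mean of both genes.

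Topbp1, whose protein activates ATR, had 2656, 6728 and 2659.7 normalised counts in MTX, 2749, 3749 and 2262 in HMS-I1, 3210.1, 2966 and 3811 in AA, 3282, 4597 and 2953 in TSA, and 3177, 2534 and 4074 in Control. MTX 2 alone stood well above the rest, and the other 14 libraries lay between 2262 and 4597. MTX therefore had the highest mean of Topbp1, 4014 ± 2349.7, against 3262 ± 773 normalised counts in Control (SD, n = 3 each).

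The chromatin members were steadier, with a pooled SD within groups of 0.26 for H2afx and 0.30 for Mdc1 on the log2 scale. H2afx had 838, 649 and 1073 normalised counts in MTX, 959, 830.2 and 1232 in HMS-I1, 889.9, 815 and 911 in AA, 1078, 962 and 1378 in TSA, and 1259, 925 and 1116 in Control. The AA libraries were close together and all lay below the 3 Control libraries, while the other treatments overlapped Control. The means of H2afx were 853 ± 212 in MTX, 1007 ± 205 in HMS-I1, 872 ± 50.7 in AA and 1139 ± 215 in TSA, against 1100.2 ± 168 normalised counts in Control (SD, n = 3 each). Mdc1, the reader of phosphorylated H2AX, had 4802, 6385 and 4771 normalised counts in MTX, 4457, 6078 and 6748 in HMS-I1, 4737, 4491 and 6445 in AA, 4693, 6279.6 and 7654 in TSA, and 6187, 4208 and 5892 in Control. The highest library of Mdc1 was TSA 3 and the lowest Control 2, and all 5 groups overlapped.

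Brca1, whose protein marks unpaired axes, had 1005, 918 and 436 normalised counts in MTX, 1114, 653 and 423 in HMS-I1, 1384, 764 and 839 in AA, 1260.3, 648 and 501 in TSA, and 1117, 1075 and 545 in Control. As with Atr, the first replicate was the highest of every group, and Control 2 stood beside the first replicates. Scml2, the X-linked Polycomb gene, had 2053, 2423 and 1222 normalised counts in MTX, 1611, 2479 and 1117 in HMS-I1, 1472, 2172 and 2462 in AA, 1551, 2299.7 and 1461 in TSA, and 1551, 1603 and 2192 in Control. Its second replicate was the highest in MTX, HMS-I1 and TSA and its replicate 3 in AA and Control, with every group overlapping every other.

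Of the downstream kinases, Chek1 had 485, 354 and 336 normalised counts in MTX, 403, 271 and 222 in HMS-I1, 473, 466 and 376 in AA, 557, 569 and 192 in TSA, and 502, 393 and 369.6 in Control. TSA thus held both the highest and the lowest library of Chek1, and HMS-I1 had the lowest mean, 299 ± 93.5, against 422 ± 70.7 normalised counts in Control (SD, n = 3 each). Chek2 had 116, 95.9 and 142 normalised counts in MTX, 86.1, 114 and 106 in HMS-I1, 91.8, 106 and 129.6 in AA, 82.3, 129.8 and 137 in TSA, and 59.9, 133 and 124 in Control. Control 1 was the lowest of the 15 libraries for Chek2, and Chek2 was the member with the smallest fold, 1.16, between its highest group mean (MTX) and its lowest (HMS-I1). Over the 9 genes this fold ran up to 1.47, for Chek1 in TSA over HMS-I1. For every member, groups next to each other in the order of means differed by less than the pooled SD within groups. From the lowest to the highest group mean, the log2 range exceeded the log2 pooled SD for H2afx (0.43 against 0.26), Chek1 (0.59 against 0.48) and Atm (0.58 against 0.53). For the other members it did not.

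None of the 9 genes passed the test in any comparison. With limma on log2(normalised count + 1), p-values adjusted by Benjamini and Hochberg over all 17896 genes and a threshold of 0.05, the number called was 0 of 9 members and 0 of all genes (0%) for MTX, HMS-I1, AA and TSA against Control, for each of the 6 pairs of treatments, and in an F-test over the 5 groups. At an unadjusted p under 0.05 the counts over all genes were 1027 in TSA, 143 in AA, 98 in MTX and 73 in HMS-I1 against Control, with 0 of the 9 members in each. Without TSA 1, 992 genes were called in TSA against Control, with 0 of the 9 members among them, and without Control 1 or HMS-I1 3 at most 1 gene was called in any comparison. With array quality weights, 6645 of the 17896 genes were called in AA against Control, with 2 of the 9 members (H2afx and Atr) among them. In TSA against Control these weights called 4234 of the 17896 genes and 0 of the 9 members. That fit gave AA 2 a weight of 38.79, against 0.2295 to 2.92 for the other libraries. Groups that did not overlap were found for 1 of 9 members in AA against Control (H2afx, lower), where 5.04% of all genes did not overlap, and for 0 of 9 in MTX, HMS-I1 and TSA, where 2.47%, 2.7% and 4.54% did not. Given this spread, the 95% intervals were wide: for Atr in HMS-I1 against Control the log2 difference lay between -1.48 and 0.58.

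In MTX, the members with the smallest p were H2afx, Chek2 and Topbp1. H2afx was lower than Control by a log2 difference of -0.39 (SE 0.24, adjusted p = 1), in both library sets (-0.36 in the first, -0.42 in the second). Without MTX 2 the difference of H2afx was -0.20, and without MTX 3 it was -0.57. Chek2 had a log2 difference of 0.22 (SE 0.35) and Topbp1 of 0.18 (SE 0.35), both with an adjusted p of 1. The difference of Chek2 was 0.38 within the first set but -0.090 within the second, and turned to -0.14 without Control 1. That of Topbp1 was -0.10 and 0.05 within the sets and turned to -0.27 without MTX 2. Over the 9 members the median log2 difference in MTX was -0.11, with 3 higher and 6 lower, beside -0.01 over all genes tested. This median did not hold its sign: it was 0.13 in libraries of the first set alone, -0.094 in those of the second, and 0.048 with the library set as a term. It moved to -0.28 without MTX 1, 0.15 without MTX 3, and -0.038, -0.029 and -0.20 without Control 1, 2 and 3 in turn. Elongating spermatid markers were lower in MTX in 6 of 8 (median -0.34, or -0.37 in the first set alone and -0.21 in the second alone). Early prophase markers were higher in 4 and lower in 4 (median 0.05, or 0.15 and -0.30 in the sets). None of these markers passed the test, and their part in the member values was not tested.

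In HMS-I1, Atm, Chek1 and Atr had the smallest p, and all were lower than Control. The log2 difference was -0.58 for Atm (SE 0.41), -0.53 for Chek1 (SE 0.38) and -0.45 for Atr (SE 0.48), each with an adjusted p of 1. Atm was lower within both library sets (-0.25 in the first, -0.48 in the second), as was Chek1 (-0.14 and -0.59), whereas Atr was at 0.15 in the first but -0.39 in the second. Without HMS-I1 3 the differences shrank to -0.20 for Atm, -0.34 for Chek1 and -0.019 for Atr. The median over the 9 members was -0.16, with 2 higher and 7 lower, beside -0.02 over all genes. It was -0.055 in the first set alone, -0.39 in the second alone, -0.025 without HMS-I1 3, -0.36 without HMS-I1 2 and -0.25 without Control 2. The round spermatid markers were also lower in HMS-I1 (8 of 8, median -0.26), as were 5 of 8 early prophase markers (median -0.14). Within the second set alone these medians were -0.46 for round spermatids and -0.54 for early prophase, against 0.023 and 0.15 within the first. None passed the test, all markers of both lists were above 0 in every library, and their part in the member values was not tested.

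In AA, the smallest p belonged to H2afx, Scml2 and Atr. H2afx was lower by a log2 difference of -0.33 (SE 0.24, adjusted p = 1.00), and again in both library sets (-0.28 in the first, -0.37 in the second). Scml2 stood at 0.18 (SE 0.34) and Atr at -0.20 (SE 0.48). Within the sets Scml2 was at -0.099 and 0.077, and Atr at 0.048 and 0.034, so neither kept its pooled direction in both sets. Brca1, chosen after its values were seen, gave 0.34 and 0.56 within the sets, against 0.15 in the pooled comparison. The median over the 9 members was 0.05, with 5 higher and 4 lower, beside -0.02 over all genes, and it turned to -0.053 without AA 3, -0.027 without Control 3 and -0.0053 without Control 2. It was 0.0012 without AA 1. Of the cell type markers, elongating spermatid genes were lower in AA in 8 of 8 (median -0.57, or -0.17 in the first set alone and -0.64 in the second alone), and genes of pachytene and later in 7 of 8 (median -0.20, or 0.020 and -0.27 in the sets). Early prophase genes were lower in 6 of 8 (median -0.08, or 0.0034 and -0.41 in the sets). Spermatogonial genes had a median of 0.36, with 7 of 8 higher (0.061 and 0.27 in the sets). The Sertoli median was 0.36 in the pooled comparison, with 8 of 8 higher, but only 0.11 in the first set alone and -0.0095 in the second alone. No marker passed the test, and their part in the values of H2afx was not tested.

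In TSA, Atm, Mdc1 and Chek2 had the smallest p. The log2 difference was -0.33 for Atm (SE 0.41, adjusted p = 0.886), 0.19 for Mdc1 (SE 0.26, adjusted p = 0.888) and 0.18 for Chek2 (SE 0.35, adjusted p = 0.912). Atm was lower within both library sets (-0.27 in the first, -0.099 in the second). Mdc1 was at -0.12 in the first set but 0.23 in the second, and Chek2 at -0.12 and 0.10, so neither of these 2 held its direction across the sets. Chek2 also turned to -0.18 without Control 1, and Atm was at -0.071 without TSA 3. The median over the 9 members was -0.02, with 4 higher and 5 lower, beside 0.01 over all genes. It turned to 0.047 with the library set as a term, 0.058 without TSA 3, 0.059 without TSA 1 and 0.061 without Control 3. Without TSA 2 it was -0.13, without Control 2 it was -0.074 and without Control 1 it was -0.043. Round spermatid markers were lower in TSA in 8 of 8, with a median of -1.40, none passing: their mean log2 level was 12.519, 10.059 and 11.094 in the 3 TSA libraries, against 12.275, 12.652 and 12.542 in Control. Elongating spermatid genes were lower in 7 of 8 (median -0.41), while spermatogonial (8 of 8, median 0.48), Sertoli (8 of 8, median 0.52) and Leydig genes (6 of 6, median 0.55) were higher. Within the second set these medians were -2.26 for round spermatids, -0.50 for elongating spermatids, 0.45 for spermatogonia, 0.23 for Sertoli cells and 0.92 for Leydig cells. Within the first set they were 0.073, 0.015, 0.23, 0.073 and -0.31, in the same order. The part of these cell types in the member values was not tested. The early prophase markers stood at 11.522, 11.829 and 11.053 in TSA, against 11.254, 11.59 and 11.948 in Control.

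**Figure D2:**
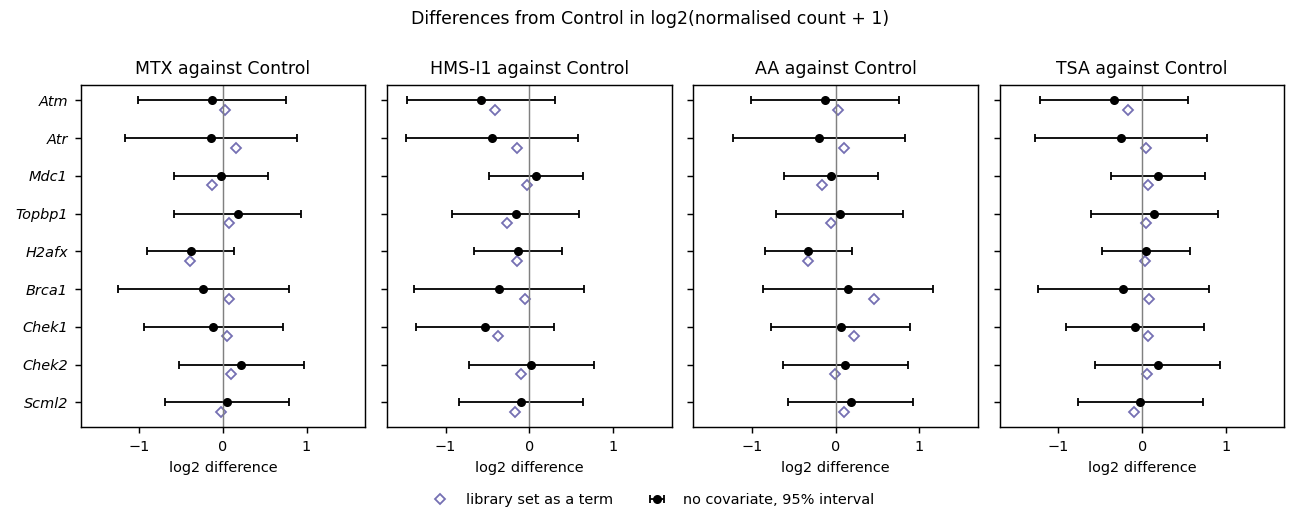
Differences from Control in mean log2(normalised count + 1) (x axis) of the 9 genes (y axis) in MTX, HMS-I1, AA and TSA. Filled circles with bars are the differences with their 95% intervals and open diamonds the differences with the library set as a term; every interval includes 0, and H2afx in MTX, at -0.39, comes nearest to leaving it.

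Among the 6 pairs of treatments, the members differed most evenly between TSA and HMS-I1. All 9 were higher in TSA, by log2 differences of 0.07 to 0.44 with a median of 0.18. Over all genes the median was 0.01, and 51.4% were higher. The shared direction of the members rested on HMS-I1 3, the lowest of the 15 libraries for Atm, Atr, Topbp1, Brca1 and Scml2. Without HMS-I1 3, the mean log2 values of Atm, Atr, Brca1 and Scml2 were lower in TSA, and those of the other members higher. Within the first set the members were not alike: Atm, Atr, Chek2 and Scml2 were lower in TSA 1 than in HMS-I1 1, and the others higher. These 4 had 1054, 28704, 82.3 and 1551 normalised counts in TSA 1, against 1066, 28845, 86.1 and 1611 in HMS-I1 1. The smallest p of TSA against HMS-I1 was that of Chek1. In TSA against MTX and in TSA against AA the smallest p was that of H2afx, and H2afx was higher in TSA by 0.43 in the first pair and by 0.37 in the second. The other members ran down to -0.20 in TSA against MTX and to -0.37 in TSA against AA. AA against HMS-I1 (median 0.25, 7 higher and 2 lower, Chek1 with the smallest p), HMS-I1 against MTX (median -0.20, 2 higher and 7 lower, Atm) and AA against MTX (median 0.0015, 5 higher and 4 lower, Brca1) complete the pairs. The adjusted p of every member in every pair was 1. Without TSA 1, 537 genes were called in TSA against HMS-I1, 767 in TSA against MTX and 616 in TSA against AA, with 0 of the 9 members in each. The unadjusted counts over all genes were 485 in TSA against HMS-I1, 894 in TSA against MTX, 741 in TSA against AA, 223 in AA against HMS-I1, 109 in HMS-I1 against MTX and 304 in AA against MTX.

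Several members differed more between the library sets than between any treatment and Control. Atr had 25773 to 29890.2 normalised counts in the first set, against 8994 to 23791 in the second, a log2 difference of 0.88. Brca1 had 1005 to 1384 in the first set, against 423 to 918 in the second, a difference of 0.91. These 2 of 9 members did not overlap between the sets, beside 24.8% of all genes tested. Atm (0.52) and Chek1 (0.48) were also higher in the first set, while Chek2 (-0.38), Mdc1 (-0.32), Topbp1 (-0.29) and Scml2 (-0.22) were lower, each with overlap. H2afx differed by 0.01. Of the 60 Hist genes, whose mean defined the sets, 56 were higher in the first set, with a median of 5.23. The H2afx transcript carries the stem-loop printed above but did not follow those genes.

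Within the second set, the third libraries of MTX, HMS-I1 and TSA differed from the second libraries in a shared way, which was seen in the values before it was tabulated and has no test. For Atr the third library minus the second was -1.06 in MTX, -0.88 in HMS-I1 and -0.74 in TSA on the log2 scale, and 0.02 in AA. Atm (-0.76, -0.999 and -0.80), Brca1 (-1.07, -0.62 and -0.37), Topbp1 (-1.34, -0.73 and -0.64) and Scml2 (-0.99, -1.15 and -0.65) were also lower in the third library of MTX, HMS-I1 and TSA, in that order, and higher by 0.14 to 0.36 in the third library of AA. H2afx went the other way, with 0.72 in MTX, 0.57 in HMS-I1 and 0.52 in TSA, and 0.16 in AA. Chek1 was lower in the third library of all 4 treatments, most in TSA (-1.56).

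Atm, Atr and Brca1, all lower in those libraries, have coding transcripts above 6 kb, and H2afx has the shortest of the 9. Mdc1, at 7.335 kb, was lower in MTX 3 (-0.42) but not in HMS-I1 3 (0.15) or TSA 3 (0.29). Over all genes with a coding transcript of 6 kb or more, the median difference was -0.42 in MTX, -0.29 in HMS-I1 and -0.14 in TSA, and 0.13 in AA. Genes under 1.5 kb had medians of 0.49 in MTX, 0.26 in HMS-I1 and 0.36 in TSA, and -0.07 in AA. Topbp1 and Scml2, at 5.224 and 4.847 kb, fell outside the long range and were lower all the same, and the genes of 1.5 to 6 kb had medians of 0.01 in MTX and HMS-I1 and 0.07 in TSA. Early prophase markers were lower in the same libraries: their mean log2 level was 12.097 in MTX 2 and 11.192 in MTX 3, 11.824 in HMS-I1 2 and 10.913 in HMS-I1 3, and 11.829 in TSA 2 and 11.053 in TSA 3, but 11.42 in AA 2 and 11.677 in AA 3. The part of transcript length and of prophase cell content in these member values was not tested. Without the third libraries of MTX, HMS-I1 and TSA, 0 of the 9 members passed in any comparison.

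**Figure D3:**
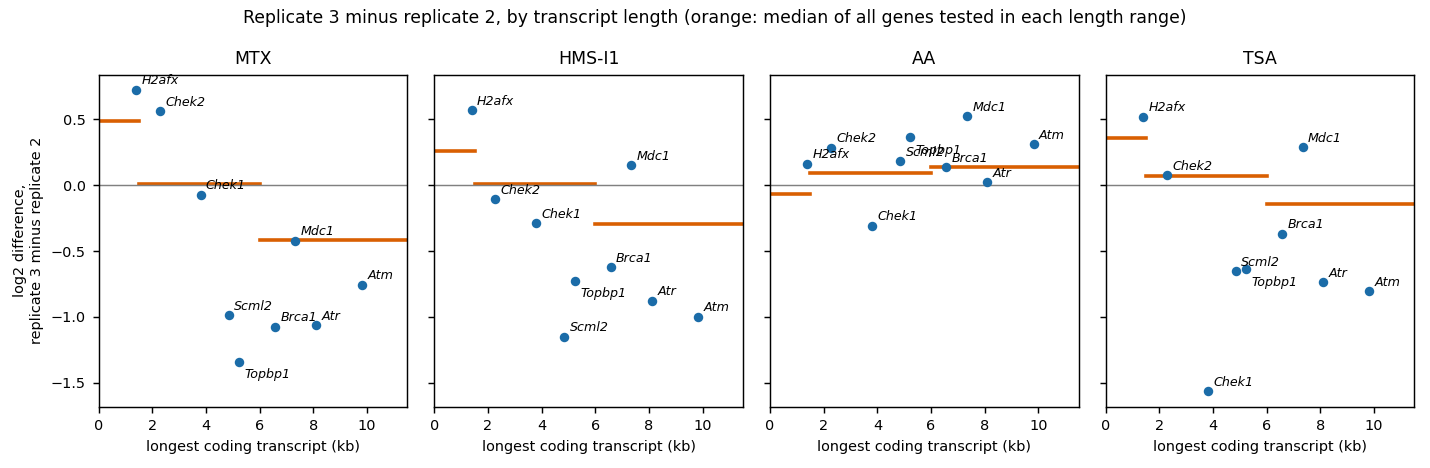
Log2 difference between replicate 3 and replicate 2 (y axis) of the 9 genes against the length of the longest coding transcript in kb (x axis), for MTX, HMS-I1, AA and TSA. Orange lines are medians of all genes tested in 3 length ranges; H2afx is the highest and Atr, Atm, Brca1, Topbp1 and Scml2 lie below 0 in MTX, HMS-I1 and TSA, but not in AA.

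Several members varied together across the libraries of the second set. Over its 9 libraries, Pearson's r of log2 values was 0.944 for Atm with Scml2, 0.930 for Atr with Topbp1, 0.908 for Atr with Scml2 and 0.873 for Atr with Brca1. H2afx ran against them, with -0.822 for Atr and -0.850 for Brca1, and Mdc1 followed none of the kinases closely (-0.091 with Atr). In the 6 libraries of the first set, Atm with Scml2 again gave 0.895, but Atm with Brca1 gave -0.904, against 0.884 in the second set, and Atr with Topbp1 gave -0.073. These values describe the libraries, which share treatments, scaling and the differences between replicates given above.

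**Figure D4:**
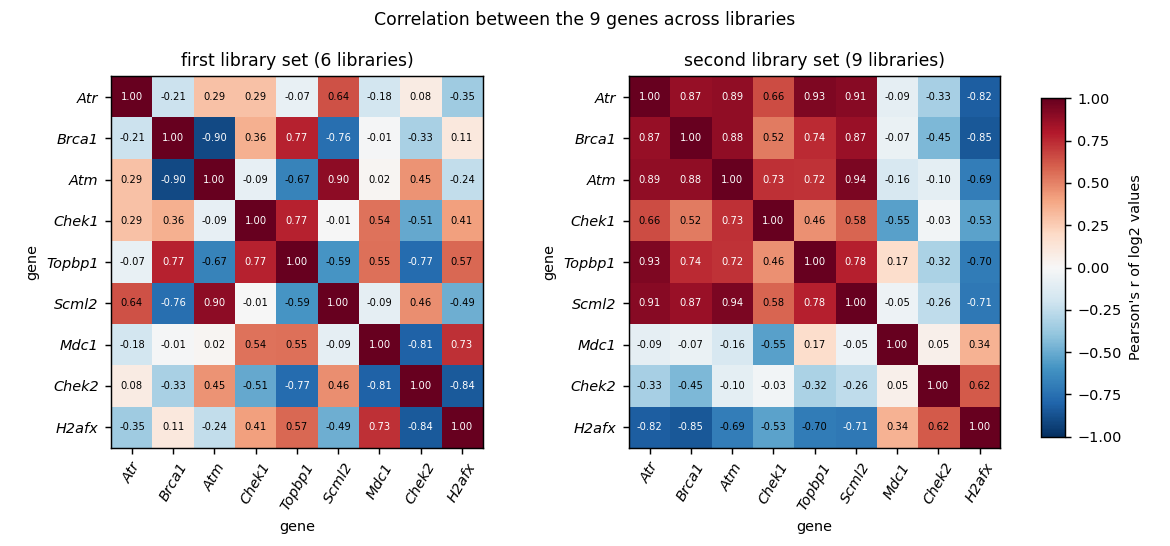
Pearson's r of log2 values between pairs of the 9 genes (both axes), over the 6 libraries of the first set (left) and the 9 of the second (right), with red for positive and blue for negative r. Atr, Brca1, Atm, Topbp1 and Scml2 form a red block in the second set with H2afx opposite to them, and no such block is seen in the first set, where Atm with Brca1 is at -0.904.

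With values centred within the library sets, the genes most like each member were sought among 13444 genes with a mean of at least 50 and a symbol, over the 15 libraries. Atr was followed most closely by Rbbp8 (r = 0.981), Senp6 (0.980) and Rbm39 (0.978), Topbp1 by Kdm5a (0.982), Dhx15 (0.974) and Ccdc112 (0.960), and Atm by Zbtb33 (0.984), Ugp2 (0.955) and Eps15 (0.937). Scml2 had Atp11b (0.966), Tmem170b (0.966) and Cbx3 (0.965) beside it, and Brca1 had Zdhhc21 (0.924), Ap4e1 (0.921) and Spag9 (0.919). Mdc1 came closest to Aqr (0.953), Snrnp200 (0.909) and Ntrk2 (0.903), and H2afx to Rbm14 (0.910), Wnt5b (0.908) and Zfp212 (0.899). Chek1 (Rc3h2, 0.809) and Chek2 (Zfp277, 0.852) had no gene as close.

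The other genes of the pathway gave no call either. In 7 lists holding 102 genes, all of them tested, 0 passed in any of the 4 comparisons with Control, and the list medians ran from -0.24 to 0.22 on the log2 scale. Of 17 genes that activate ATM and ATR, 10 were higher and 7 lower in TSA, with a median of 0.06; the smallest p was that of Tti1, a subunit of the TTT complex that helps kinases of this family to mature, at 0.46. Of 16 mediators and ubiquitin ligases at breaks, 9 were higher and 7 lower in TSA (median 0.02). Of 15 checkpoint targets, 7 were higher and 8 lower in TSA (median -0.06), and the smallest p was that of Ppm1d, the phosphatase that reverses ATM signalling, at -0.50. Of 11 Fanconi anaemia genes, 2 were higher and 9 lower in AA (median -0.13), and 6 were higher and 5 lower in TSA (median 0.05). Of 16 genes that silence the sex chromosomes, 11 were higher and 5 lower in MTX (median 0.09), and 6 were higher and 10 lower in TSA (median -0.04). Within the library sets, first before second, the Fanconi median in AA was -0.048 and 0.15. The silencing median in MTX was -0.0042 and 0.0072. In TSA the medians within the sets were 0.10 and 0.18 for the activators and 0.0072 and -0.26 for the mediators. They were 0.0067 and 0.050 for the checkpoint targets, 0.054 and 0.38 for the Fanconi genes, and 0.022 and -0.11 for the silencing genes. Of 9 autosomal copies that stand in for silenced X genes, 8 were lower in TSA (median -0.19), 8 in HMS-I1 (median -0.05) and 7 in AA (median -0.08). Within the library sets the same medians were 0.055 and -0.066 in TSA, 0.093 and -0.037 in HMS-I1, and -0.0028 and -0.16 in AA, first set before second.

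The genes silenced in pachytene lie on the X and Y chromosomes. In 18 sex-linked genes of the list the median log2 difference was -0.04 in MTX, -0.24 in HMS-I1, 0.22 in AA (13 higher and 5 lower) and -0.14 in TSA (8 higher and 10 lower). Within the first set these medians were 0.16, 0.028, 0.056 and -0.053, and within the second -0.21, -0.32, 0.29 and -0.24, in the same order. The smallest p in TSA was that of Zfy2, a Y-linked zinc-finger gene, which had 651, 217 and 109 normalised counts in TSA, against 596, 697 and 564 in Control. Its paralog Zfy1 had 305, 204 and 81.6 normalised counts in TSA, against 295, 336 and 401 in Control. In both, TSA 2 and TSA 3 lay below every Control library and TSA 1 did not. The third libraries of MTX and HMS-I1 also lay below, with 322 and 205 normalised counts of Zfy2 and 247 and 172 of Zfy1. So did AA 2 and AA 3 for Zfy2 (507 and 483), but not for Zfy1. The same held for the Y-linked genes Usp9y and Eif2s3y. Usp9y had 752, 449 and 184 normalised counts in TSA, against 724, 644 and 580 in Control. Eif2s3y had 2287, 1839 and 822 in TSA, against 2187, 2766 and 2860 in Control. The other Y-linked genes of the list (Ddx3y, Uba1y, Uty and Kdm5d) did not share this pattern. Ddx3y had 1185, 1427 and 717 in TSA, against 1152, 1296 and 1161 in Control. Uba1y had 946, 793 and 1441 in TSA, against 953, 1078 and 923 in Control. The log2 difference was -1.31 (SE 0.60, adjusted p = 0.871) for Zfy2 and -0.99 (SE 0.45) for Zfy1, and neither passed. The paralogs are alike in sequence, so their reads may be shared between them. Across 347 Y-linked genes tested, the median was -1.10 in TSA, beside -0.06 over 879 X-linked genes and 0.02 over 16602 autosomal genes, with 0 called. The Y-linked genes also differed between the library sets, with a median of 0.77 in the first set over the second, beside -0.21 on the X. Within the first set the Y-linked median of TSA against Control was 0, and within the second it was -1.37. In AA the X-linked median was 0.16, beside -0.09 on the Y and -0.03 on autosomes, and within the sets it was 0.015 in the first and 0.071 in the second. The round spermatid markers were low in the same TSA libraries as Zfy1 and Zfy2, at 10.059 in TSA 2 and 11.094 in TSA 3 against 12.519 in TSA 1, and their part in the Y-linked values was not tested.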

How the data were processed

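The authors deposited 1 table of normalised counts, a signal that is not whole reads, for 36118 Ensembl genes and 15 libraries. The submitters' processing notes name Salmon 0.12.0, DESeq2 1.34.0 and FastQC 0.11.9, and the build GRCm39. Symbols, lengths and chromosomes came from a GRCm38 annotation, which matched 35825 identifiers and missed 293; coding lengths were known for 16562 genes tested (92.5%). Whole reads were not recovered, so depth is an estimate and no counting interval is given.

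The scale used was log2(normalised count + 1). It understates the change of low genes. Genes with a mean of at least 10 entered limma 3.58.1 (lmFit, eBayes with a variance trend; R 4.3.3). A single model held 5 group means with 10 residual degrees of freedom. Tests were two-sided, with Benjamini-Hochberg adjustment over all genes tested. Libraries were grouped by their titles.

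The members and gene lists were chosen with earlier results of these data known. Fold changes are printed for the 3 members with the smallest p in each comparison with Control, and for list genes with the smallest p; others are named as chosen after their values were seen. Same-numbered libraries deviated together between treatments (correlations of 0.132 to 0.756 over genes). With Control, replicates 1 (0.413 to 0.517) and 3 (0.21 to 0.675) did so too, while replicate 2 ran from -0.583 to -0.299. Control 2 lies in another library set than the other replicates 2. Among MTX, HMS-I1 and TSA the correlations were 0.638 to 0.756 at every replicate number. Between AA and the other treatments they were 0.678 to 0.739 at replicate 1, but 0.132 to 0.338 at replicates 2 and 3. Differently numbered libraries were not compared, so these values cannot show that the numbers pair the libraries. The likeness is read from the data only, and the labels give no pairing. Replicates 2 and 3 of all treatments lie in the second library set, and the part of the library set in the likeness was not tested. The alternatives were another pseudocount, no filter, median-centred libraries, the library set as a term, a replicate block, both together, array quality weights, each library left out, and, added after seeing the data, 2 subsets of libraries.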

Additional observations from a re-analysis of the deposited data

How the results depend on the processing

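None of the 9 members passed under any alternative except array quality weights. Those weights called 6645 genes in AA against Control, 4234 in TSA against Control, 3092 in TSA against AA and 5640 in the F-test, with a member median of -0.27 in AA. They called H2afx (-0.47, adjusted p = 0.0174) and Atr (-0.61, adjusted p = 0.0492) in AA against Control, 2 of 9 members beside 6645 of 17896 genes. In TSA against AA they called Mdc1 (0.63, adjusted p = 0.0354) and H2afx (0.61, adjusted p = 0.0325), 2 of 9 members beside 3092 of 17896 genes. Such calls were therefore not particular to the members. The weight of AA 2 was 38.79, against 0.2295 to 2.92 for the other 14 libraries, and its part in these calls was not tested. Over the other alternatives the member counts stayed at 0.

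With the library set as a term, Atr in AA turned to 0.10. The replicate block cannot move a difference between groups that each hold every replicate number (the member median in MTX is -0.11 with or without it) and bears only on the SE. The number of genes called with it was 0 in all comparisons. With the set and the replicate block together, Topbp1 in MTX turned to -0.18, Scml2 in AA to -0.082 and Mdc1 in TSA to -0.016. Leaving out the third libraries of MTX, HMS-I1 and TSA gave 1 gene called in each of MTX against Control, HMS-I1 against MTX, TSA against MTX, AA against MTX and the F-test. The second set alone gave 7 genes in TSA against Control, 6 in TSA against AA, 2 in HMS-I1 against MTX, 4 in TSA against MTX, 3 in AA against MTX, 7 in TSA against HMS-I1 and 6 in the F-test, with Chek2 in MTX at -0.090 and Atr in AA at 0.034, and with a single Control library assumed to vary like the treatments.

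Leaving out 1 library at a time, the count of genes called ran from 0 to 1 in MTX, HMS-I1 and AA against Control, in HMS-I1 against MTX and in AA against MTX. It ran from 0 to 992 in TSA against Control, from 0 to 616 in TSA against AA, from 0 to 767 in TSA against MTX, from 0 to 537 in TSA against HMS-I1 and from 0 to 246 in the F-test. The upper values came without TSA 1, and the single genes without HMS-I1 3 or Control 1. In the same runs Chek2 ranged from -0.14 to 0.43 in MTX and from -0.18 to 0.41 in TSA, turning without Control 1, and Topbp1 in MTX from -0.27 to 0.40, turning without MTX 2. Where the cause of a change is not named above, it was not tested. Of the values of named members under alternatives, 277 kept direction and side of the threshold, 9 turned and 2 passed it. Part of the 277 could not turn. Leaving out a library of a group outside the comparison, or adding the replicate block, cannot move a difference. The tally is therefore no measure of stability.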
